A study of Homo sapiens with 2 samples.

Results

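The tumour necrosis factor (TNF) superfamilies comprise the TNF-like ligands and the receptors that bind them. They were examined in EOL-1, an established human line from an eosinophilic leukaemia, whose growth is driven by the kinase fusion FIP1L1-PDGFRA. Members were the genes whose symbol is TNFSF or TNFRSF followed by a number, together with TNF, LTA, LTB, LTBR, CD40, CD40LG, CD27, CD70, FAS, FASLG, EDAR and EDA2R. Probe sets assigned to a single gene represented 41 of these members among 19775 annotated genes. CD40LG, TNFSF12 and TNFRSF6B are not analysed here. The members were 15 ligands and 26 receptors, covered by 83 probe sets.

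The Glivec group was 1 culture of EOL-1 cells given 100 nM Glivec (imatinib, which blocks PDGF receptor, KIT and ABL kinases) over 4 h. The control was 1 untreated culture of the same line, and both carry the fusion. Total RNA from each was hybridised to 1 Affymetrix array, so the study holds 2 arrays and no replicates. No test between the groups was possible and no p-value is given. The sole estimate of error is how far probe sets of 1 gene differ, and this holds nothing of the variation from culture to culture.

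Most ligands of this family are membrane proteins that act as trimers, on the cell surface or after shedding, and gather their receptors into clusters. Receptors with a death domain, such as TNFRSF1A, FAS and TNFRSF10A, can recruit FADD and caspase-8 to start apoptosis. Receptors without one recruit TRAF adaptors and pass the signal on to NF-kB and JNK, and decoy receptors bind ligand without a full signalling tail. In blood cells these molecules serve costimulation, survival and the control of inflammation.

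Values are deposited signals on a linear scale. A floor was set at the median signal of all non-control probe sets, 13.7, and any signal below it was set to it when the ratio of Glivec over untreated was formed. The brightest probe set, by its mean over the arrays, stood for a gene, and a gene is called measured if either array exceeded the floor. A ratio with 1 array at the floor is only a bound, written as at least N-fold. Signals of different genes cannot be set against each other, because each probe set binds with its own strength.

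Of 41 members 28 were measured, 19 of them on both arrays and 9 as bounds. At the floor on both arrays were the ligands LTA, TNFSF8, TNFSF11 and TNFSF15 and the receptors CD27, EDA2R, TNFRSF9, TNFRSF10C, TNFRSF11B, TNFRSF13C, TNFRSF17, TNFRSF19 and TNFRSF25. For these 13 members no ratio is given, and a low signal does not show that the transcript was absent. A cross-hybridising TNFRSF25 probe set, not used for the gene, lay just above the floor (18.8 with Glivec, 16.2 untreated).

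Among the measured members 5 were at least 2-fold lower with Glivec, where 2.63% of all 12705 measured genes were. These were TNF, LTB, TNFRSF10A, TNFRSF12A and TNFRSF21, 17.9% of the 28. TNFRSF12A and TNFRSF21 were below the floor with Glivec, so they were measured only through the untreated array and could only count as lower. The share of all measured genes also holds such bounds, but fewer in proportion. Above the floor on both arrays were 10975 of the 12705 genes and 19 of the 28 members, so the shares are not fully alike. With a floor at the 75th percentile 14 members were measured and 0 were lower by this limit. The 2 members at least 2-fold higher were TNFRSF1B and TNFRSF8 (7.14% of 28, against 3.13% of all measured genes). The other 21 did not reach 2-fold. Some of these are bounds, such as TNFSF18, FASLG and TNFRSF13B, and a bound cannot place a member within 2-fold. The 2 LTB probe sets disagree, and with LTB read by its other probe set 4 members were lower (14.3%) and 3 higher (10.7%). The median log2 ratio of the 28 was -0.013, beside 0.10 for all measured genes, and the range ran from -1.89 to 1.21. These shares describe 2 arrays and a small family, and nothing particular to the family was tested.

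**Figure D1:**
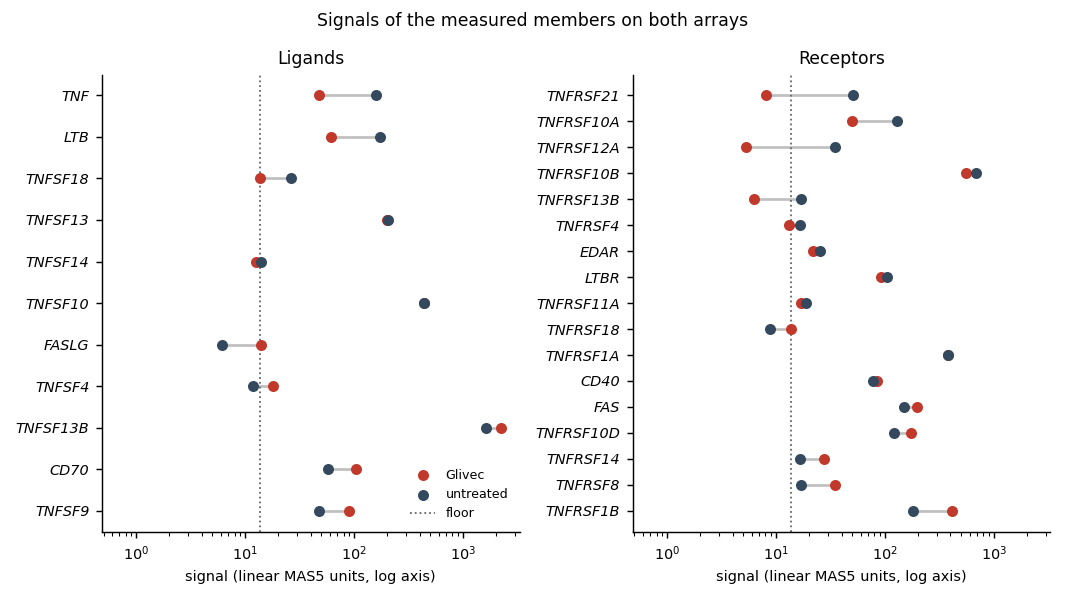
Signals of the 28 measured members with Glivec (red) and untreated (dark), on a log axis in linear MAS5 units, with ligands on the left and receptors on the right. The dotted line is the floor of 13.7; TNF heads the ligands with 47.7 against 158.6, the LTB probe set used follows (another LTB probe set was higher with Glivec), and TNFRSF1B ends the receptors with 414 against 179.

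TNF, the founding cytokine of the family, had a signal of 47.7 with Glivec and 158.6 in untreated cells. The treated array was lower by 3.32-fold, a log2 ratio of -1.73, from its single probe set. In bulk RNA, fewer cells that make a transcript and less of it per cell cannot be told apart. The pooled SD between probe sets of a gene in this signal range was 0.398 on the log2 scale. LTB, which encodes lymphotoxin beta, the membrane anchor of the lymphotoxin heterotrimer, had 61.1 with Glivec and 173.8 without, a 2.85-fold lower value by its brighter probe set. Its other probe set went the opposite way, with 33.2 against 14.7, a log2 ratio of 1.18. The direction for LTB therefore rests on which probe set is read. LTA, whose product pairs with lymphotoxin beta, was at the floor on both arrays (0.991 with Glivec and 1.45 untreated).

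TNFSF18, the ligand of the GITR receptor, was near the floor and at least 1.93-fold lower, with 13.6 against 26.4. Several ligands lay on the other side. TNFSF9, the ligand of the costimulatory receptor CD137, had 90.6 with Glivec and 47.3 without, or 1.92-fold higher. CD70, the ligand of CD27, had 105.0 and 57.6, or 1.82-fold higher. Both rest on 1 probe set and neither reached 2-fold. With the arrays scaled to the spike-in controls these log2 ratios shrank from 0.94 to 0.20 for TNFSF9 and from 0.87 to 0.13 for CD70.

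TNFSF13B encodes BAFF, a survival factor for B cells that myeloid cells secrete. Its 2 probe sets read 2215 and 2271 with Glivec and 1620 and 1441 untreated, log2 ratios of 0.45 and 0.66. Spike-in scaling turned the first to -0.29. TNFSF10, which encodes the death ligand TRAIL, was nearly level by 3 probe sets. Its signals were 438 with Glivec and 439 untreated by the probe set used, and 273 and 262, and 293 and 286, by the others, log2 ratios of -0.0023, 0.058 and 0.033. TNFSF13, which encodes the B cell factor APRIL, was level as well, with 199 and 204 by its single, cross-hybridising probe set. Both were level only as deposited, since spike-in scaling put TNFSF10 at -0.74 and TNFSF13 at -0.77. TNFSF4, TNFSF14 and FASLG were at the edge of the floor. TNFSF4 had 17.9 with Glivec and 11.8 untreated, TNFSF14 had 12.6 and 13.9, and FASLG had 13.9 and 6.09, so that no order can be read for them.

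Receptors for TNF itself differed from each other. TNFRSF1B, the TNF receptor without a death domain, had 414 with Glivec and 179 without, 2.31-fold higher (log2 ratio 1.21). TNFRSF1A, the death domain receptor for the same cytokine, had 382 and 380, a log2 ratio of 0.0078. Thus, as deposited, the ligand was lower, 1 receptor was higher and the other level on the treated array. Spike-in scaling put TNFRSF1A at -0.73. The pooled probe set SD in the range of both receptors was 0.298. TNFRSF1B kept a positive ratio under each scaling, at 1.22 with quantile normalization, 1.11 with median centring and 0.47 with spike-in scaling.

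Within the TRAIL system the receptors diverged while the ligand was level as deposited. TNFRSF10A, a death receptor for TRAIL, was lower by all 3 of its probe sets. Signals were 49.8 with Glivec and 127.8 untreated by the probe set used, and 51.5 and 113.1, and 38.0 and 80.7, by the others. The log2 ratios were -1.36, -1.14 and -1.09, so that each probe set passed 2-fold. TNFRSF10B, the other TRAIL death receptor, had 552 and 690, or 1.25-fold lower, and its 2 cross-hybridising probe sets gave -0.16 and -0.17. TNFRSF10D, a decoy receptor for TRAIL, had 175.1 and 120.7, a log2 ratio of 0.54, and its dimmer probe set was at least 2.26-fold higher (31.0 against 8.28). With spike-in scaling the first of these turned to -0.20. The remaining TRAIL decoys, TNFRSF10C and TNFRSF11B, were at the floor.

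FAS, the death receptor that binds FAS ligand, was higher by 4 of 4 probe sets above the floor. The probe set used read 196 with Glivec and 151 untreated, a log2 ratio of 0.38, and another gave 0.56. The remaining ones, which are cross-hybridising, gave 0.62 and 0.70. No FAS probe set reached 2-fold, and spike-in scaling turned the value used to -0.36. TNFRSF21, also called death receptor DR6, had 8.15 with Glivec and 50.7 untreated, at least 3.70-fold lower. Its other probe set, a cross-hybridising one, was below the floor on both arrays (10.3 and 8.99). EDAR, the ectodysplasin receptor, had 21.9 and 25.6.

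TNFRSF12A, the receptor for the ligand TWEAK, had 5.28 with Glivec and 34.4 untreated, at least 2.51-fold lower by its single probe set. TNFRSF8, which encodes CD30, had 34.6 and 16.8, or 2.06-fold higher. Its untreated signal lay close to the floor, and the ratio dropped below 2-fold with quantile normalization (0.88), median centring (0.95) and spike-in scaling (0.31). TNFRSF14, the receptor for LIGHT known as HVEM, had 27.5 and 16.6, or 1.66-fold higher, and -0.010 on the log2 scale with spike-in scaling. LTBR, the lymphotoxin beta receptor, had 92.7 and 104.2.

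CD40, a costimulatory receptor of antigen-presenting cells, had probe sets in disagreement. The probe set used read 84.8 with Glivec and 77.4 untreated, another 28.7 and 38.5, and 1 more 21.9 and 4.19, for log2 ratios of 0.13, -0.43 and at least 0.68. No direction can be given for it. TNFRSF4 (OX40), TNFRSF11A (RANK), TNFRSF13B (TACI) and TNFRSF18 (GITR) were within 10 signal units of the floor on both arrays, at 13.3 and 16.5, 17.1 and 18.8, 6.23 and 17.1, and 13.8 and 8.74. Several probe sets were above the floor for 10 members. They had 1 sign for 5 of these (FAS, TNFRSF10A, TNFRSF10B, TNFRSF10D and TNFSF13B) and mixed signs for LTB, CD40, TNFSF10, LTBR and TNFRSF18. A single probe set carried the value of the other 18 members, among them TNF, TNFRSF1B, TNFRSF8, TNFRSF12A and TNFRSF21.

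**Figure D2:**
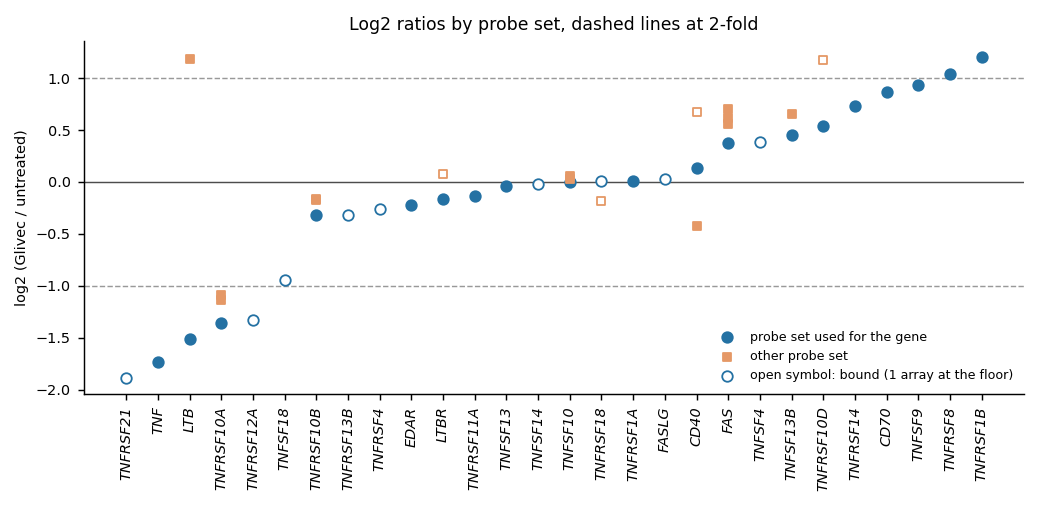
Log2 ratio of Glivec over untreated for each probe set with an array above the floor, with the 28 measured members in order of the value used; circles are the probe sets used, squares the others, and open symbols are bounds. The squares of TNFRSF10A lie beside its circle below -1, whereas the other LTB probe set lies at 1.18 above a value of -1.51.

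By role, 2 of 11 measured ligands (TNF and LTB) were at least 2-fold lower and 0 higher, with a median log2 ratio of -0.0023, or 1 lower and 1 higher with LTB read by its other probe set. Of all measured genes 2.63% were lower and 3.13% higher by this limit, so that each role holds too few members for its share to be read. Of 17 measured receptors 3 were lower and 2 higher, with a median of -0.14. The 6 measured receptors with a death domain included 2 at least 2-fold lower (TNFRSF10A and, as a bound, TNFRSF21) and 0 higher. Among 10 measured receptors that lack a death domain and bind TRAFs, 2 were higher (TNFRSF1B and TNFRSF8) and 1 lower (TNFRSF12A, a bound). At the lower limit of 1.5-fold, 5 members were higher and 6 lower, where 13.5% and 8.33% of all measured genes were. Both members of a known ligand and receptor pair were measured for 13 of 28 pairs.

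**Figure D3:**
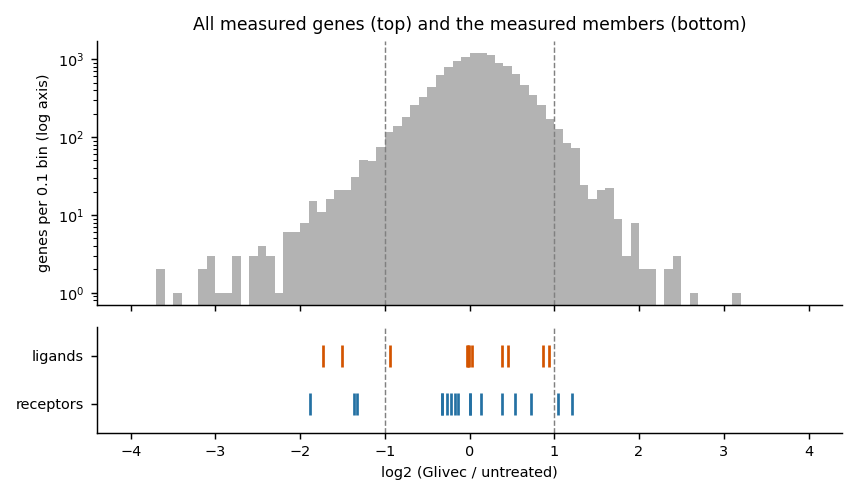
Distribution of the log2 ratio of Glivec over untreated for 12705 measured genes (top, log count axis) and the position of each measured ligand and receptor (bottom), with dashed lines at 2-fold. The members spread from -1.89 to 1.21 around a median of -0.013.

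Several members are direct neighbours in the genome, by the order of protein-coding genes in the RefSeq table of GRCh38.p14. TNF lies between LTA and LTB on chromosome 6, and both TNF and the brighter LTB probe set were lower. The nearest measured genes outside this trio were NFKBIL1, with a log2 ratio of 0.47, and LST1, with -0.20. TNFRSF8 and TNFRSF1B, the 2 members past 2-fold higher, are adjacent on chromosome 1. TNFSF9 and CD70 are adjacent on chromosome 19 with log2 ratios of 0.94 and 0.87, while TNFSF14 beside them was at the floor on 1 array (-0.024). The adjacent TNFRSF10D and TNFRSF10A lay apart, at 0.54 and -1.36. TNFSF18 (-0.94) and its neighbours FASLG (0.024) and TNFSF4 (0.38) were all near the floor. Their values are bounds and are not set against each other. TNFRSF18 and TNFRSF4, adjacent and near the floor, were at 0.0055 and -0.27, also bounds. TNFRSF1A and LTBR, with 1 gene between them, were at 0.0078 and -0.17. Whether neighbours change together was not tested.

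Upstream sequences are shown for the 5 of 7 members past 2-fold that the RefSeq promoter table (GRCh38.p14) holds, since these include both neighbouring pairs. TNFRSF10A and TNFRSF12A are named only. Each runs 5′ to 3′ on the gene's strand over the 250 bases before the annotated start. They lie at chr6:31575315-31575564 (plus strand, TNF), chr6:31582426-31582675 (minus, LTB), chr6:47309906-47310155 (minus, TNFRSF21), chr1:12063053-12063302 (plus, TNFRSF8) and chr1:12166741-12166990 (plus, TNFRSF1B). Capitals mark matches to the motifs searched on both strands.
TNF: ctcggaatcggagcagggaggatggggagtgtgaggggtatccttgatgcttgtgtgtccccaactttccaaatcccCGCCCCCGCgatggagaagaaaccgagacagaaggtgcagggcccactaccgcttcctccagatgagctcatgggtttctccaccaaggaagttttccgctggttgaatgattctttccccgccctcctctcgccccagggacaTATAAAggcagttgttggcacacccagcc
LTB: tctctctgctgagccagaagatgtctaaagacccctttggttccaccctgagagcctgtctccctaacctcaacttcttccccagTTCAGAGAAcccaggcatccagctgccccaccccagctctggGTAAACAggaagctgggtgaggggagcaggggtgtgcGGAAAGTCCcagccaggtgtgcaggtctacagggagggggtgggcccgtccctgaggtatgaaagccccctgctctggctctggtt
TNFRSF21: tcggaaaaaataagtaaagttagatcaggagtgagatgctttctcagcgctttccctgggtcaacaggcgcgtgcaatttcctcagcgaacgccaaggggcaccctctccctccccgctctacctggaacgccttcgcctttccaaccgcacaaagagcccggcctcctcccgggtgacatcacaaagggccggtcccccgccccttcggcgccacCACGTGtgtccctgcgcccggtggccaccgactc
TNFRSF8: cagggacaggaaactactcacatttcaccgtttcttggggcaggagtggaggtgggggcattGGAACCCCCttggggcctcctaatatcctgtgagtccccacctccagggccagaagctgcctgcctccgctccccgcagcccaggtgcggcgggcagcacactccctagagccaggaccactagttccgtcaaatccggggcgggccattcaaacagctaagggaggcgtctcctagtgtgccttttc
TNFRSF1B: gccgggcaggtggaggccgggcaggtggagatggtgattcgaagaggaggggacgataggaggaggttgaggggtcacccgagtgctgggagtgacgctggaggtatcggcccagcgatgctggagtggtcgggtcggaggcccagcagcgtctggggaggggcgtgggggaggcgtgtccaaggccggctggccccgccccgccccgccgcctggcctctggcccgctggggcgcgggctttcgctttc

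The capitals in TNF are a match on the opposite strand to the EGR1 motif GCGNGGGCG, at bases -173 to -165 from the start, and a TATAAA at -29 to -24. LTB held a STAT motif (TTCNNNGAA) at -165, a FOXO motif (GTAAACA) at -123 and, on the opposite strand, the NF-kB motif GGANTTTCC at -86. TNFRSF21 held the E-box CACGTG at -34. TNFRSF8 held a second NF-kB motif, GGGNNTTCC, on the opposite strand at -188, and TNFRSF1B none of the 10 motifs. The other motifs were AP-1 (TGANTCA), CRE (TGACGTCA) and ETS (CCGGAAG), and no 2 matches in these 5 windows overlap. Of 35116 promoter windows 8.41% held the EGR1 motif, 10.7% TATAAA, 6.57% the STAT motif, 2.98% the FOXO motif, 1.45% and 5.78% these NF-kB motifs in that order and 6.34% the E-box. Among 20 measured members with a window, 4 held the second NF-kB motif (FAS, TNFRSF13B, TNFRSF8 and TNFSF13), 4 TATAAA (TNF, TNFRSF18, TNFSF10 and TNFSF9), 2 each the EGR1 motif (FAS and TNF), the AP-1 motif (FAS and TNFSF14) and the E-box (LTBR and TNFRSF21), and 1 each the first NF-kB, STAT and FOXO motifs (all LTB) and the ETS motif (TNFSF14). A member counts if any of its annotated starts has a match, whereas the shares above are per window, so the figures cannot be compared directly. A match describes letters in the window and is not a binding site.

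Of all 12705 measured genes 11973 did not reach 2-fold, while 2.63% were at least 2-fold lower and 3.13% higher. Most genes that carry the receptor signal did not reach 2-fold either, and each list is too small for its counts to be read. Among 12 measured receptor adaptors and ubiquitin ligases 1 was at least 2-fold lower and 0 higher, with a median log2 ratio of 0.0084. That gene was TRAF3, an adaptor that restrains the alternative NF-kB pathway, at 43.5 with Glivec and 163.4 untreated, but its other probe set was at 0.015. FADD, the adaptor of the death receptors, was at -0.54. TRADD, the adaptor of TNFRSF1A, was at 0.67, or 0.16 by another probe set. Of 14 measured genes of death signalling and its inhibitors none reached 2-fold (median -0.025). CASP8, the initiator caspase, was at 0.17. CFLAR, which blocks caspase-8, was at -0.60, and its 11 other probe sets above the floor ran from -0.89 to 0.19.

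Kinases from the receptors to NF-kB and JNK had a median of 0.055 over 13 measured genes, with 1 at least 2-fold higher and 0 lower. Over all measured genes 3.13% were higher and 2.63% lower, so a count of 1 cannot be read for this list or the next. MAP3K8, a kinase that links TNF receptors to ERK, was 2.16-fold higher (67.5 against 31.3), and another probe set gave 0.68. For genes that handle TNF mRNA and protein the median was 0.22 over 15 genes, with 1 at least 2-fold higher and 0 lower. RHBDF2, which carries the TNF sheddase to the cell surface, was at least 2.23-fold higher (30.6 against 13.3). ADAM17, the sheddase itself, was at 0.34 by the probe set used, with others between -0.49 and 0.087. ZFP36, which encodes a protein that destabilises TNF mRNA, had 646 and 480, a log2 ratio of 0.43.

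TNF-inducible genes spread more widely. Of 27 measured, 4 were at least 2-fold lower and 1 higher (14.8% and 3.70%, against 2.63% and 3.13% of all measured genes), with a median of -0.017. The lower ones were the chemokine genes CCL2 (at least 12.2-fold), CXCL10 (9.09-fold) and CXCL8 (2.09-fold, or -0.75 on the log2 scale by another probe set) and the survival gene BCL2A1 (18.9 against 37.8). RELB, a subunit of the alternative NF-kB pathway, was 2.02-fold higher, with 99.7 against 49.2. At 1.5-fold 7 of the 27 were higher and 7 lower. Among the lower, the adhesion gene ICAM1 was at -0.96 (-0.73 and -0.72 by others), IER3 at -0.86 and IL1B, which encodes an inflammatory cytokine, at -0.66. Among the higher, the superoxide dismutase gene SOD2 was at 0.86, TNFAIP2 at 0.69, TNIP1 at 0.62 and NFKB2 at 0.61. TRAF1 was at least 0.90 as a bound (0.48 by another probe set), and the chemokine gene CCL5 was at 0.71 (-0.43 and 0.037 by others). TNFAIP3, a feedback inhibitor of NF-kB, was at -0.065, and NFKBIA, the gene of the inhibitor IkB alpha, at 0.33. Some of these genes are also in the lists above.

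**Figure D4:**
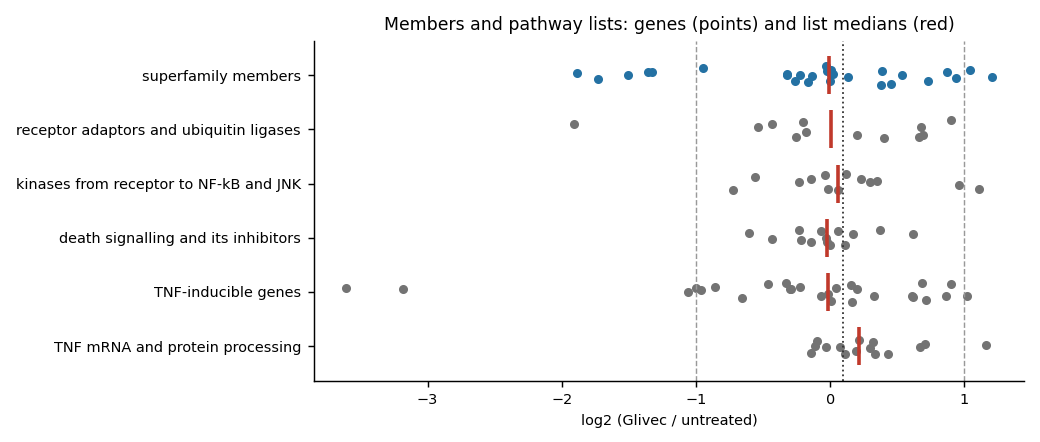
Log2 ratio of Glivec over untreated for the measured members (blue) and the genes of 5 pathway lists (grey), with list medians in red, the median of all measured genes (0.10) dotted and 2-fold dashed. The list medians lie between -0.025 and 0.22, and CCL2 and CXCL10 lie below -3 in the row of TNF-inducible genes.

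Some values of the arrays as a whole touch these results. The 18 hybridisation spike-in probe sets had a median log2 ratio of 0.74, and with the arrays scaled to these controls all genes had a median of -0.59, so each ratio is relative to the bulk of genes. Among all genes past 2-fold, 54.4% were higher as deposited, 42.2% with quantile normalization, 37.8% with median centring and 1.70% with spike-in scaling. For the members the split of higher and lower was 2 and 5 as deposited, 1 and 6 with either of the first 2 of these and 0 and 7 with spike-in scaling. Of the eosinophil markers listed, 7 of 11 with a probe set were measured. PRG2 and RNASE2, which encode granule proteins, had signals from 2146 to 6302 and log2 ratios of 0.41 and 0.42. EPX and CLC were near the floor, with 27.2 and 13.2 with Glivec against 12.6 and 19.4 untreated. ADGRE1 had 42.2 with Glivec and 44.0 untreated. The transcription factor gene GATA2 was 2.20-fold lower with Glivec (94.4 against 208.2, with -0.86 and 0.20 by other probe sets), and the cytokine receptor gene CSF2RB was at -0.83 (391 against 693). IL5RA, SIGLEC8, PRG3 and GATA1 were at the floor. Markers of T and NK cells were measured for 4 of 11 genes, with CD3D, CD2 and CD8A among those at the floor. NKG7, a granule gene, had 697 with Glivec and 853 untreated. CD3E had 9.48 and 21.0, KLRD1 11.0 and 16.1 (a log2 ratio of 0.11 by another probe set) and NCAM1 15.6 and 16.6. B cell markers were measured for 3 of 7, with MS4A1 and PAX5 at the floor. CD79A had 94.9 with Glivec and 60.0 untreated, and FCER2 had 13.0 and 16.9. CD79B had 45.5 and 58.2 (a log2 ratio of 0.18 by another probe set). Monocyte and dendritic cell markers were measured for 6 of 8. CSF1R had 242 with Glivec and 181 untreated, and MS4A7 had 190 and 103. Lower with Glivec were CD14 (192 against 225), CD1C (37.0 against 52.2), CLEC10A (116 against 121) and IL3RA (26.1 against 32.6). The part of all these markers in the members' values was not tested.

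**Figure D5:**
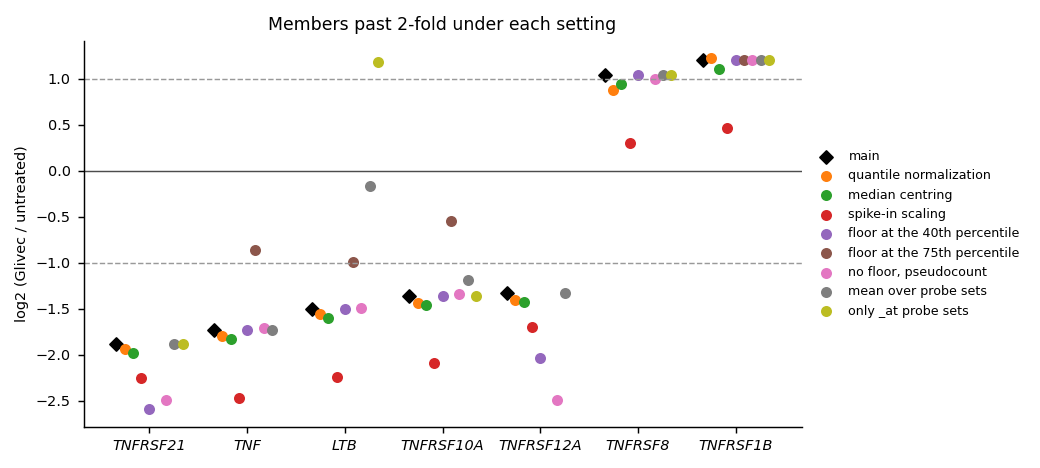
Log2 ratio of Glivec over untreated for the 7 members past 2-fold, as deposited (black diamonds) and under 8 other settings (coloured circles); a missing circle means that the gene had no value under that setting. TNFRSF21, TNF, TNFRSF10A and TNFRSF12A lie below 0 in each setting that gave a value, TNFRSF8 and TNFRSF1B above it, and LTB turns to 1.18 with only _at probe sets.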

How the data were processed

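Signal intensities of 54675 probe sets (62 of them controls) were made by the authors with MAS5 (no version stated), per the submitters' processing notes. Both deposited arrays had the same 2% trimmed mean, so they had been scaled before deposit. No detection calls were used.

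Gene names came from GEO's annotation of the array platform, which may be outdated. Of 42898 listed probe sets, 41097 had 1 symbol and 1801 several, and 41043 matched the RefSeq gene table of GRCh38.p14 by Entrez identifier, which changed 0 symbols. Probe sets with several symbols named no gene, which left out 8 that hold a member. Cross-hybridising probe sets (_x_at) served only genes with no other kind. The floor was the 50th percentile of non-control signals on both arrays. Above it were 51.4% of probe sets with Glivec and 48.6% untreated. Signals near the floor and the number of arrays limit the precision.

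The spread between probe sets was the pooled SD of log2 ratios over 5145 genes with more than 1 probe set exceeding the floor on both arrays, 0.326 in all and from 0.398 to 0.291 over 4 equal signal classes. The calculation was tested on simulated signals. Changes were placed only in genes well above the floor, with noise below the spread just given. That test therefore does not cover values near the floor or bounds. The members, lists, pairs and motifs were chosen with earlier results of these data known. Each measured member is named. Of each list, up to 4 genes past 2-fold in each direction are named. Genes named that did not reach 2-fold were chosen for their role, after their values were seen. Upstream bases are the first 250 of each RefSeq promoter window. Alternatives were quantile normalization, median centring, spike-in scaling, floors at the 40th and 75th percentile, a pseudocount of 1 without floor, the average of a gene's probe sets, restriction to _at probe sets, and a threshold of 1.5-fold. Calculations used Python 3.11.15 with numpy 2.4.6 and pandas 2.3.3, and matplotlib 3.10.9 for figures.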

Additional observations from a re-analysis of the deposited data

How the results depend on the processing

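Every alternative had been planned but 1, LTB by its other probe set, which was chosen after seeing the data and gave 3 members higher, 4 lower and a median of 0.0016. No paired analysis was possible because there is a single array per group, which also leaves no replicate to omit. Of the 7 members past 2-fold, 6 kept that size and sign with quantile normalization, median centring and the mean over probe sets, 5 with spike-in scaling and 7 with the 40th percentile floor and the pseudocount. Of 4 that were measured above the 75th percentile floor 1 did, and with only _at probe sets 4 of 5. LTB reversed to 1.18 with only _at probe sets, which drop its brighter probe set. For the other shifts the cause was not tested. A median is listed here if it shifted by more than the pooled probe set SD over the square root of the number of genes. For the pathway lists a count is given if it changed by more than 1.5-fold, or to or from 0.

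Members at least 2-fold higher numbered 2, and 1 with quantile normalization, median centring and the 75th percentile floor. They numbered 0 with spike-in scaling, 3 with only _at probe sets, 4 with the pseudocount and 5 at 1.5-fold. Members at least 2-fold lower numbered 5, and 0 with the 75th percentile floor, 9 with the pseudocount and 2 with only _at probe sets. They numbered 6 with quantile normalization, median centring, the 40th percentile floor and at 1.5-fold, 7 with spike-in scaling and 4 with the mean over probe sets. The median of the measured members moved to -0.63 with spike-in scaling and -0.11 with median centring.

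With spike-in scaling the list medians moved to -0.75 for adaptors, -0.76 for death signalling, -0.68 for kinases, -0.76 for TNF-inducible genes and -0.52 for TNF processing; 3 adaptors, 2 death signalling genes, 2 kinases and 10 TNF-inducible genes were at least 2-fold lower, and 0 kinases, 0 TNF-inducible and 0 TNF processing genes higher. With median centring the medians were -0.089, -0.12, -0.042, -0.11 and 0.12 in that order, and 0 TNF-inducible genes were higher. Quantile normalization gave a median of -0.11 for TNF-inducible genes, with 0 of them and 0 kinases higher. With the mean over probe sets the medians were -0.096 for adaptors, -0.094 for kinases, -0.084 for TNF-inducible and 0.067 for TNF processing genes, with 0 kinases and 2 TNF processing genes higher. The pseudocount gave a median of -0.18 for adaptors, with 1 higher and 2 lower, and 3 TNF-inducible genes higher. With the 40th percentile floor 1 adaptor and 2 TNF-inducible genes were higher. With the 75th percentile floor 0 adaptors and 2 TNF-inducible genes were lower, and 0 kinases, 0 TNF-inducible and 0 TNF processing genes higher. With only _at probe sets 0 kinases were higher and 2 TNF-inducible genes lower.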

Other observations

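Transcripts named after members but outside the rule were mostly at the floor. TNFRSF10A-DT, the divergent transcript beside TNFRSF10A, had 27.0 with Glivec and 32.3 untreated, a log2 ratio of -0.26. A TNFRSF14-AS1 probe set had 19.8 and 17.3, and its 2 other probe sets were below the floor, as were FAS-AS1 and TNFRSF10B-AS1. Whether the probe sets of such transcripts and of their partner genes were read from 1 strand only was not tested.

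RELT, a receptor of the family whose symbol lies outside the rule, had 111.1 with Glivec and 135.9 untreated, a log2 ratio of -0.29. EDA and NGFR were at the floor on both arrays.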
